A study of Homo sapiens with 4 samples.

Results

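T24T, a line of human bladder cancer cells derived from T24, was sequenced as an empty-vector library and as a library of cells with a BCUC-1 overexpression plasmid, and these 2 libraries were compared gene by gene. The comparison was limited to genes with at least 200 reads summed over the pair, which 12515 of the 32973 listed genes had. These 12515 genes held 99.0% of the assigned reads of the vector library and 99.1% of those of the BCUC-1 library. The T24T vector group was T24T cells stably carrying the vector, and the T24T BCUC-1 group was the same line stably carrying the plasmid. BCUC-1 is a circular RNA, listed as hsa_circ_0001361. UMUC3, another bladder cancer line, had a vector and a BCUC-1 library of its own, which are given beside the T24T values where they bear on them. All 4 cultures were grown in RPMI-1640 with fetal bovine serum and penicillin/streptomycin, and total RNA was sequenced. The study screened for genes downstream of BCUC-1. Whether the stable cells were 1 clone or a pool is not given in the sources used here. Each group held 1 library, so a difference here is between those libraries, not between the conditions, and it has no replicate check.

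Circular RNAs form when the splicing machinery joins the end of an exon back to the start of the same or an earlier exon. The closed molecule has no free end for exonucleases, and some circular RNAs bind microRNAs, which otherwise repress messenger RNAs by pairing their seed with sites in the untranslated region after the stop codon. BCUC-1 is made from exons of FNDC3B, and it has been reported to bind miR-491-5p, whose reported targets include the gelatinase gene MMP9. The labels describe plasmid overexpression, and the deposited gene-level values do not measure the circle itself.

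The vector library had 23679229 assigned reads and the BCUC-1 library 23588847, and mitochondrial genes took 3.92% and 3.84% of them. Among 13 urothelial markers, KRT8 had 21653 and 23726 reads in vector and BCUC-1, KRT18 had 6209 and 6697, and KRT7 had 2629 and 2409. The other 10 were under 200 reads in the pair: GATA3 had 21 and 22 reads, TP63 11 and 9, EPCAM 13 and 13, CDH1 1 and 1, and UPK3A was at 0 in both. KRT8, KRT18 and KRT7 were thus abundant, while the other markers, the keratins KRT19 and KRT20 among them, had at most 55 reads in a library. Of 8 fibroblast markers, 7 were listed, with a summed level of 2.45 reads per 1000000 assigned reads (RPM) in vector and 1.53 in BCUC-1, and PDGFRA was at 0. Endothelial markers summed to 0.591 and 0.339 RPM. Of 9 leukocyte markers 4 were listed, and CD68 held 386 and 350 of their 394 and 355 reads. CD68 shares 1789 bases with RP11-186B7.4 on the same strand, which had 16617 and 17850 reads, so its own share is uncertain.

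The T24T libraries were close to each other. Levels were compared as the ratio of RPM, BCUC-1 over vector, with an exact (Clopper-Pearson) 95% interval that covers counting error only. A gene was called higher at a ratio at least 25% above 1 with its interval above 1, and lower at a ratio of at most 0.8 with its interval below 1. By this rule 50 genes (0.4%) were higher with BCUC-1 and 276 (2.21%) were lower. With intervals at 95% over 12515 genes, some of these calls come from counting error alone. Ratios ran from 0.571 to 1.54, and 0 genes differed by 2-fold or more. At 1.5-fold, 1 gene was called higher and 14 lower. The median log2 ratio was -0.02, and 5395 genes lay above a ratio of 1 and 7120 below it. Higher genes made up 15.3% of the calls. When the libraries were scaled by trimmed means instead, 82 genes were higher and 193 lower, and the higher share was 29.8%.

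Most calls were at low counts. Of the 50 higher genes 47 had under 1000 reads in the pair, as had 245 of the 276 lower genes. From 200 to under 500 reads, 37 of 2477 genes were higher and 183 lower, and the median log2 ratio was -0.06. From 3000 to under 10000 reads, 0 of 2680 genes were higher and 4 lower. Above that, 0 of 874 were higher and 2 lower, NEAT1 and NFAT5, and the median was 0.02. The median log2 ratio was thus below 0 at low counts and above 0 at high counts. The spread (SD) of log2 ratios was 0.19 in the lowest range, where counting error alone gives 0.16, and 0.058 in the highest, where counting error gives 0.022. In that highest range the whole spread was 2.62 times the spread from counting error. At the limit of the rule, the 14 genes with exactly 200 reads had ratios of 0.602 to 1.07, and the 8 genes with 1 read fewer, which were left out, had ratios of 0.780 to 1.14.

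**Figure D1:**
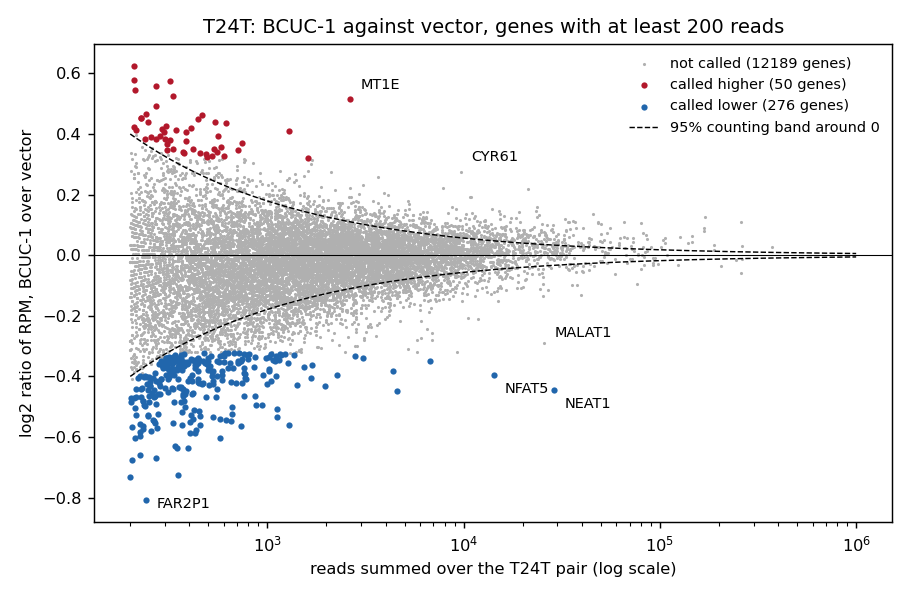
Each point is a gene of the T24T pair, with the reads summed over both libraries on the x axis (log scale) and the log2 ratio of RPM, BCUC-1 over vector, on the y axis. Red points are the 50 genes called higher and blue points the 276 called lower, dashed lines give the 95% counting band around 0, and the calls crowd at the left, with NEAT1 and NFAT5 as the abundant exceptions.

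Among the 15 named higher genes were 3 metallothioneins, small cysteine-rich proteins that bind zinc and copper and whose genes are induced by metals and glucocorticoids. MT1E (GRCh38 chromosome 16, 56625475 to 56627112, plus strand) had 1084 reads in the vector library and 1542 in the BCUC-1 library, or 43.5 and 62.1 RPKM (reads per kilobase of exon per 1000000 assigned reads). The BCUC-1 library was the higher, at a ratio of 1.43 (1.32 to 1.54), and of the 50 higher genes MT1E had the interval bound farthest from 1. MT1X, on the same strand from 56682424 to 56684196, had 261 and 352 reads, a ratio of 1.35 (1.15 to 1.60). MT2A, the most abundant of them at 320 and 372 RPKM, had 9853 and 11413 reads. Its ratio of 1.16 (1.13 to 1.19) lay above 1 but by less than the 25% of the rule, so it was not called. Metallothionein genes are near-identical in their coding parts, so reads may have been split among them, and the share of each is uncertain. MT1X also shares 321 bases with RP11-343H19.2 on the same strand, which had 243 and 318 reads.

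The genes of zinc handling did not share this pattern. MTF1, the metal-sensing activator of metallothionein genes, had 1276 and 1243 reads, a ratio of 0.978 (0.904 to 1.06). SLC30A1, the zinc exporter that MTF1 also induces, had 632 and 631 reads, a ratio of 1.00 (0.896 to 1.12). SLC39A10, a zinc importer, had 3171 and 2605 reads, a ratio of 0.825 (0.783 to 0.869), and was not called. Of 19 metallothionein and zinc transport genes with enough reads, 2 were called higher and 0 lower, 9 lay above 1 and 10 below. Their median log2 ratio of -0.0008 turned positive under equal medians, trimmed-mean scaling, removal of the GC trend and a minimum of 1000 reads, so the list as a whole had no direction.

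The promoters of the metallothioneins hold metal response elements, the sites that MTF1 binds. The core letters TGCACNC and TGCGCNC were searched on both strands in the 250 bases before the start in RefSeq (GRCh38.p14), where MT1X had 4 matches and MT2A 7. The MT2A stretch lies wholly inside the gene of the deposited table, which starts at 56608199, so 0 of its matches precede that start. Of 27305 promoters of that length 24.7% held a match, as did 34.3% of those of genes in the rule, 11 of 26 (42.3%) of those called higher and 62 of 162 (38.3%) of those called lower. A match is a description, not a site in use. The MT1X stretch up to the first base of the gene in the deposited table is shown because MT1X was called higher and its 4 matches, in capitals, all lie there. It is chr16:56682220-56682423, plus strand.
MT1X promoter: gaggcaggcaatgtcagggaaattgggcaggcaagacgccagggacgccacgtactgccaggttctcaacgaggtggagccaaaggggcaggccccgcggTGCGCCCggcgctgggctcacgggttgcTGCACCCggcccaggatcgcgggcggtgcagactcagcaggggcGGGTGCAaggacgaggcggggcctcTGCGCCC

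ADM, HBEGF, PRKCE and MAP3K14 were also called higher. ADM, which encodes the vasodilator peptide adrenomedullin and responds to hypoxia, had 195 and 268 reads, a ratio of 1.38 (1.14 to 1.67). HBEGF, an EGF receptor ligand induced by MAPK signalling, had 231 and 312 reads, a ratio of 1.36 (1.14 to 1.61). Both had more reads in the BCUC-1 library and at most 4.38 RPKM in it, and their counting intervals were wide. PRKCE, a protein kinase C isoform, had 188 and 256 reads, a ratio of 1.37 (1.13 to 1.66). MAP3K14 encodes NIK, the kinase that starts noncanonical NF-kB signalling. It had 717 and 893 reads, a log2 ratio of 0.32 (ratio interval 1.13 to 1.38). MAP3K14 overlaps its antisense gene MAP3K14-AS1, with 188 and 208 reads, by 711 bases, and the counting appeared not to use strand.

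CYR61 and FRMD6 are known targets of the transcription factors YAP and TEAD. CYR61, a secreted matricellular protein, had 4390 and 5290 reads, or 75.5 and 91.3 RPKM. FRMD6, an upstream Hippo pathway protein, had 753 and 933 reads. Their ratios of 1.21 (1.16 to 1.26) and 1.24 (1.13 to 1.37) were above 1 and just short of the 25% of the rule. In bulk cultures such as these, more cells with a transcript and more RNA per cell cannot be told apart.

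Of the named higher rows 5 were short genes with clone-based names, which had no GENCODE 29 entry under that name. RP11-20O24.4 had the highest ratio of all called genes, with 82 and 126 reads, a ratio of 1.54 (1.16 to 2.06). RP4-816N1.6 had 128 and 190 reads, a ratio of 1.49 (1.18 to 1.88), and RP11-885B4.1 had 136 and 195, a ratio of 1.44 (1.15 to 1.81). These rows share 411 bases on the same strand of chromosome 12, and both overlap FKBP4 and ITFG2 on the opposite strand, so they are not separate observations. FKBP4 itself, a cochaperone of HSP90, had 3972 and 4358 reads, a ratio of 1.10. RP11-275I14.4, with 109 and 160 reads, and RP11-780K2.1, with 84 and 125, lie opposite ACBD3 and RBM19, whose ratios were 1.05 and 1.05. Reads of the opposite gene could count for these rows, and their own share was not measured.

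**Figure D2:**
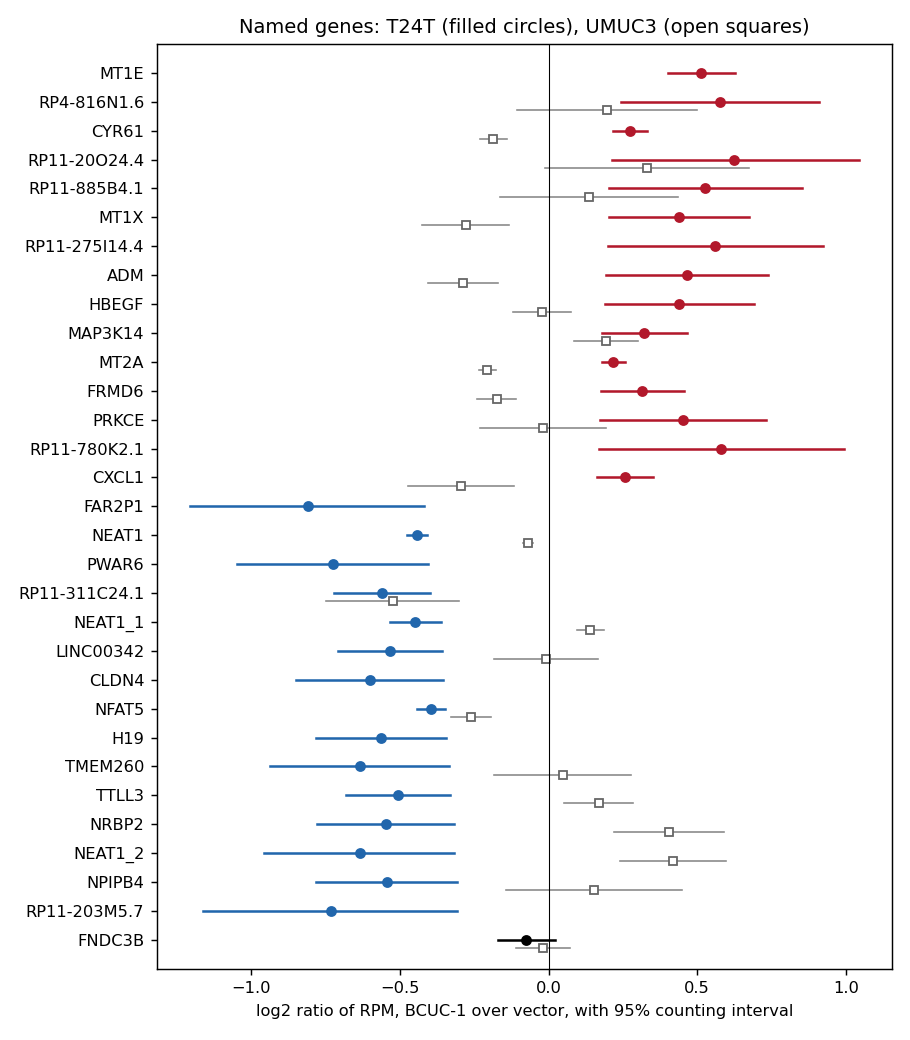
Log2 ratio of RPM (x axis), BCUC-1 over vector, with its 95% counting interval for the 15 higher genes (red) and 15 lower genes (blue) of those reported whose interval bound lay farthest from 1, and for FNDC3B (black). Open grey squares give UMUC3 where it had at least 200 reads, and CYR61, MT2A, FRMD6 and CXCL1 are drawn in red although they were short of the 25% of the rule.

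By reads, the most abundant gene called lower was NEAT1, the noncoding RNA that is the scaffold of paraspeckles, nuclear bodies that hold certain proteins and edited RNAs. NEAT1, on chromosome 11 from 65422774 to 65445540, had 16678 vector reads and 12215 BCUC-1 reads, or 30.9 and 22.7 RPKM, a ratio of 0.735 (0.718 to 0.753). Per length, 6 lower rows of 68 to 207 bases stood above NEAT1 in RPKM, among them its own short rows. The rows NEAT1_1, NEAT1_2 and NEAT1_3 lie wholly within NEAT1 and share its reads. They had 2649 and 1934, 212 and 136, and 648 and 515 reads, at ratios of 0.733, 0.644 and 0.798. The BCUC-1 library was the lower in each of these short stretches, which are no independent measure of NEAT1. MALAT1, the nuclear-speckle RNA encoded beside NEAT1, had 14117 and 11518 reads, a ratio of 0.819 (0.799 to 0.839), and was just outside the 0.8 of the rule.

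Messenger RNAs of paraspeckle proteins were nearer to equal. NONO had 26776 and 26806 reads, a ratio of 1.00 (0.988 to 1.02), and SFPQ had 30119 and 28723, a ratio of 0.957 (0.942 to 0.973). NEAT1 was the 1 gene called among 15 nuclear-retained RNAs and paraspeckle proteins with enough reads.

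NFAT5, the transcription factor of the osmotic stress response, had 8082 vector reads and 6122 BCUC-1 reads. Its ratio was 0.760 (0.735 to 0.786), and it lies on chromosome 16 from 69565094 to 69704666. RP11-311C24.1, with 773 and 522 reads and a ratio of 0.678 (0.605 to 0.758), lies wholly within the NFAT5 exons on the same strand and shares their reads. Known NFAT5 targets were nearer to 1: SLC5A3, the myo-inositol importer, had 2357 and 2160 reads, a ratio of 0.920 (0.867 to 0.976). SLC6A6, the taurine importer, had 1985 and 1991, a ratio of 1.01 (0.946 to 1.07). NFAT5 was the 1 gene called of 13 osmotic stress genes, of which 10 lay below 1.

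Some epithelial genes were among the lower ones. CLDN4, a tight junction claudin on chromosome 7 from 73799542 to 73832693, had 346 and 227 reads, a ratio of 0.659 (0.555 to 0.781). RIPK4, a kinase of keratinocyte differentiation, had 2485 and 1898 reads, a ratio of 0.767 (0.722 to 0.814). In both, the vector library was the higher. DSC2, a desmosomal cadherin, had 424 and 347 reads, a ratio of 0.822 (0.711 to 0.949), and JUP, the plakoglobin gene, had 1336 and 1174, a ratio of 0.882 (0.815 to 0.955), and neither was called. CLDN1, KRT8 and KRT18 stood on the other side of 1, while KRT7 lay below it, at a log2 ratio of -0.12. CLDN1 had 16102 and 16986 reads, a ratio of 1.06 (1.04 to 1.08), and KRT8 had a ratio of 1.10 (1.08 to 1.12). Of 14 epithelial genes 2 (14.3%) were called lower, beside 2.21% of all genes of the rule, and 0 higher. Of these 14, 10 lay below 1, and the median log2 ratio was -0.11 beside -0.02 over all genes of the rule. With a minimum of 1000 reads the median was -0.04, and with a minimum of 50 reads -0.15. Summed over the 37 epithelial genes listed, reads were 66919 and 68848, a ratio of 1.03 (1.02 to 1.04).

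Imprinted and other noncoding RNAs followed. H19, the imprinted noncoding RNA beside IGF2, had 436 and 294 reads, a ratio of 0.677 (0.582 to 0.787). PWAR6, from the imprinted Prader-Willi region, had 219 and 132 reads, a ratio of 0.605 (0.484 to 0.754). LINC00342 had 665 and 458 reads, a ratio of 0.691 (0.612 to 0.780). The pseudogene FAR2P1 had the lowest ratio of the 12515 genes, with 153 and 87 reads, a ratio of 0.571 (0.434 to 0.747). RP11-203M5.7 had 125 and 75 reads, a ratio of 0.602 (0.446 to 0.808), and lies opposite OSGEP, whose ratio was 0.951.

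The protein-coding genes TMEM260, TTLL3, NRBP2 and NPIPB4 complete the named lower genes. TMEM260 had 240 and 154 reads, a ratio of 0.644 (0.523 to 0.792). TTLL3, a tubulin glycine ligase, had 656 and 460, a ratio of 0.704 (0.623 to 0.794), and shares 2217 bases with the readthrough gene ARPC4-TTLL3. NRBP2, a pseudokinase gene, had 386 and 263 reads, a ratio of 0.684 (0.583 to 0.802). NPIPB4, a member of a primate gene family with near-identical copies, had 366 and 250, a ratio of 0.686 (0.581 to 0.808), and its reads cannot be assigned with certainty. These genes had at most 3.31 RPKM in either library. More abundant lower genes, chosen here after their values were seen, were LENG8, with 3792 and 2964 reads and a ratio of 0.785 (0.748 to 0.823), and PABPC1L, with 1290 and 978 reads and a ratio of 0.761 (0.700 to 0.828).

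Groups of genes were described by how many members were called and by their median log2 ratio, beside 0.4% higher, 2.21% lower and a median of -0.02 over all genes of the rule. Among 29 targets and partners of YAP and TEAD, 1 was called higher and 0 lower, 19 lay above 1, and the median was 0.06. The called gene was ANKRD1, a muscle ankyrin repeat protein, with 145 and 184 reads, a ratio of 1.27 (1.02 to 1.59). NT5E, the ectonucleotidase CD73, had 641 and 758 reads, a ratio of 1.19 (1.07 to 1.32). At the other end AMOTL1 had 636 and 577 reads, a ratio of 0.911 (0.812 to 1.02). The list thus held genes on both sides of 1, and with a minimum of 1000 reads its median was 0.03.

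Among 19 feedback genes and ligands of the MAPK pathway, HBEGF was the 1 gene called, 15 lay above 1, and the median was 0.06, or 0.03 with a minimum of 1000 reads. EPHA2, an ephrin receptor, had 5805 and 6105 reads, a ratio of 1.06 (1.02 to 1.09), and SPRY4, a feedback inhibitor of receptor signalling, had 3305 and 3183, a ratio of 0.967 (0.921 to 1.02). Of 20 immediate early genes 0 were called and 9 lay above 1. JUN, a subunit of the AP-1 transcription factor, had 732 and 884 reads, a ratio of 1.21 (1.10 to 1.34). FOSL1, another AP-1 subunit, had 4128 and 4591, a ratio of 1.12 (1.07 to 1.16). The median of the immediate early genes was -0.0081, and it turned positive under equal medians, trimmed-mean scaling and removal of the GC trend.

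Among 18 NF-kB genes and chemokines 2 were called higher and 1 lower. NFKBIE, an inhibitor that holds NF-kB in the cytoplasm, had 135 and 171 reads, a ratio of 1.27 (1.01 to 1.61), and MAP3K14 was the other. BCL3, a nuclear partner of NF-kB p50 and p52, had 215 and 156 reads, a ratio of 0.728 (0.589 to 0.899). The neutrophil chemokines were above 1 without being called: CXCL1 had 1668 and 1986 reads, a ratio of 1.20 (1.12 to 1.28), and CXCL8 had 701 and 837, a ratio of 1.20 (1.08 to 1.33). NFKBIA, the feedback inhibitor, had 722 and 644, a ratio of 0.895 (0.804 to 0.997). The named chemokines thus lay above 1, while the inhibitors NFKBIE and NFKBIA lay on different sides. Of all 18 genes 12 lay above 1 and 6 below, with a median log2 ratio of 0.04.

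Genes of BMP signalling were called in both directions. ID4, a dominant-negative helix-loop-helix protein induced by BMPs, had 598 and 447 reads, a ratio of 0.750 (0.662 to 0.850). BMPR2, the type II BMP receptor, had 1551 and 1227, a ratio of 0.794 (0.736 to 0.856). NOG, the secreted BMP antagonist noggin, had 128 and 169 reads, a ratio of 1.33 (1.05 to 1.68). ID1, another BMP target, had 2127 and 1832 reads, a ratio of 0.865 (0.812 to 0.921), and was not called. Among these named genes a receptor and 2 targets had fewer reads in the BCUC-1 library and an antagonist had more. Of all 16 genes 11 lay below 1 and 5 above, and the median of -0.03 became 0.003 under trimmed-mean scaling.

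Receptor tyrosine kinases and their ligands held 3 lower genes of 25 (12%) and 0 higher. All 3 were among the 11 with under 1000 reads in the pair (27.3%), where 5.07% of all genes were lower. ERBB3, the kinase-impaired partner of ERBB2, had 430 and 331 reads, a ratio of 0.773 (0.668 to 0.894). FGFR3, a receptor often mutated in bladder cancer, had 165 and 128, a ratio of 0.779 (0.613 to 0.987). BTC, the EGF receptor ligand betacellulin, had 165 and 127, a ratio of 0.773 (0.608 to 0.980). The abundant receptors were near 1: EGFR had 9676 and 9217 reads, a ratio of 0.956 (0.929 to 0.984), and MET had 2669 and 2857, a ratio of 1.07 (1.02 to 1.13).

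Matrix genes lay on both sides of 1. THBS1, thrombospondin 1, had 6596 and 7308 reads, a ratio of 1.11 (1.08 to 1.15), and FN1, fibronectin, had 724 and 646, a ratio of 0.896 (0.804 to 0.997). Of 10 mesenchymal genes 0 were called and 8 lay above 1, with a median of 0.08. FOXD1, a forkhead factor of that list, had 745 and 914 reads, a ratio of 1.23 (1.12 to 1.36). Its antisense gene lies wholly within its exons and had 502 and 586 reads, so part of this value may be shared.

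Of 20 p53 targets 1 was called lower and 13 lay below 1, with a median of -0.06. TP53INP1, a stress-induced regulator of apoptosis and autophagy, had 316 and 239 reads, a ratio of 0.759 (0.639 to 0.901). GDF15, a stress cytokine, had 437 and 358, a ratio of 0.822 (0.713 to 0.948), and GADD45A, a stress-induced growth arrest gene, had 1369 and 1570, a ratio of 1.15 (1.07 to 1.24). Of 28 bladder cancer driver genes 1 was called, FGFR3, and 21 lay below 1, with a median of -0.07. TERT, the telomerase catalytic subunit, had 760 and 648 reads, a ratio of 0.856 (0.770 to 0.952).

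Of 28 glycolysis and hypoxia genes ADM was the 1 called, and 20 lay above 1, with a median of 0.04. HK2, the inducible hexokinase, had 1419 and 1659 reads, a ratio of 1.17 (1.09 to 1.26), and PGK1 had 16956 and 17949, a ratio of 1.06 (1.04 to 1.09). Of 28 circular RNA and microRNA factors 1 was called lower, AGO4, an Argonaute protein that binds microRNAs, with 762 and 604 reads, a ratio of 0.796 (0.714 to 0.887). DGCR8, a subunit of the nuclear microRNA processor, had 1602 and 1728 reads, a ratio of 1.08 (1.01 to 1.16). These lists thus held isolated calls.

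In 13 of the 32 lists, immediate early and mesenchymal genes among them, 0 genes were called. In 38 cell cycle genes the median was 0.03, with MKI67 at 29566 and 29195 reads, a ratio of 0.991 (0.975 to 1.01) that lay above 1 under equal medians and trimmed-mean scaling. In 33 genes of ER stress and the ATF4 response it was 0.0077, in 22 NRF2 and glutathione genes 0.03, in 22 apoptosis regulators 0.03 and in 18 small nucleolar RNA host genes 0.02. In 83 cytosolic ribosomal protein genes it was 0.02, with 60 above 1. The list of 47 CLK kinases and SR splicing proteins had 35 members below 1 and a median of -0.03, which became 0.0052 under trimmed-mean scaling. NKTR, a cyclophilin-related gene of that list, had 3273 and 2802 reads, a ratio of 0.859 (0.817 to 0.904). The medians were -0.03 in 24 interferon genes, and -0.012 in 29 cholesterol and fatty acid genes and -0.0017 in 77 respiratory chain subunits, where the sign turned under equal medians, trimmed-mean scaling and removal of the GC trend, and in the subunits with a minimum of 1000 reads too. In 13 histone genes the median was 0.01, and it turned negative with a minimum of 50 reads or with no minimum.

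Among 36 mitochondrially encoded genes 32 lay below 1 and the median was -0.04. The 1 gene called was MT-TP, a transfer RNA, with 208 and 153 reads, a ratio of 0.738 (0.595 to 0.914). MT-ND4, a subunit of complex I, had 131907 and 126258 reads, a ratio of 0.961 (0.953 to 0.968). Most mitochondrial genes thus lay slightly below 1.

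**Figure D3:**
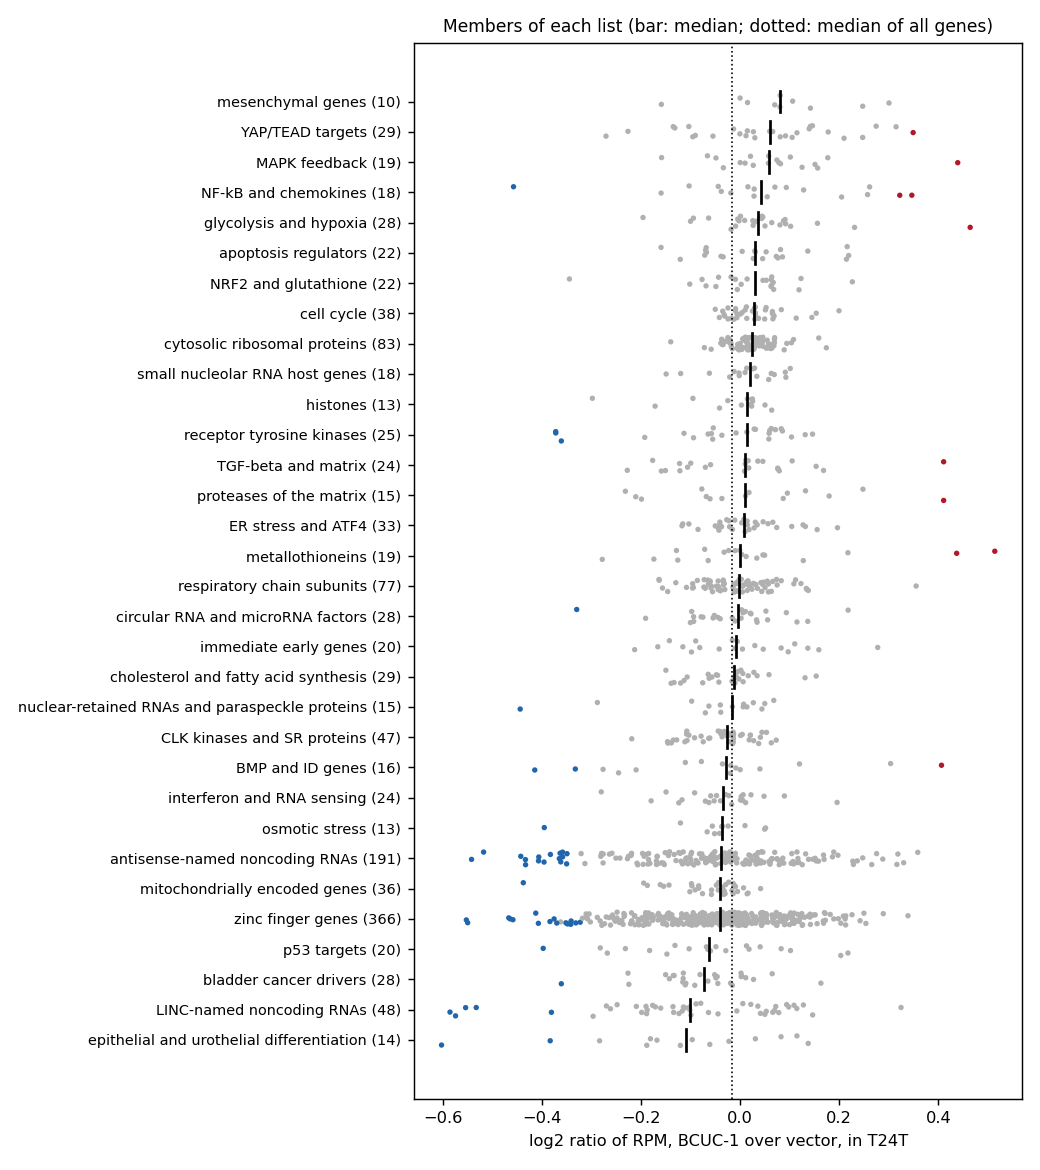
Each point is a gene with at least 200 reads in the T24T pair, placed by its log2 ratio of RPM (x axis) in the row of its list, with the number of members in brackets. Black bars are list medians, the dotted line is the median of all 12515 genes, red and blue points were called higher and lower, and the medians run from -0.11 in epithelial genes to 0.08 in mesenchymal genes.

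At 200 to under 1000 reads, a larger share was called lower in several, but not all, classes of noncoding transcripts than among coding genes. This grouping by gene type was made after the values were seen and is a description. Among genes with 200 to under 1000 reads, 9 of 51 long intergenic noncoding RNAs were lower (17.6%), 13 of 79 transcribed unprocessed pseudogenes (16.5%), 5 of 33 processed transcripts (15.2%) and 11 of 131 antisense genes (8.40%). Protein-coding genes were lower in 150 of 3378 cases (4.44%) and processed pseudogenes, which are intronless copies of messengers, in 3 of 81 (3.70%). Rows that matched no GENCODE symbol, and so had no gene type here, were lower in 46 of 981 cases (4.69%), near the coding share. Smaller classes differed: 0 of 16 transcribed processed pseudogenes, 0 of 15 small nucleolar RNAs and 1 of 7 sense intronic genes (14.3%) were lower. Counts were not matched further within this range. From 1000 reads on, 3 of 17 long intergenic noncoding RNAs were lower, beside 0.317% of coding genes. There 0 of 25 transcribed unprocessed pseudogenes, 0 of 24 processed transcripts and 0 of 60 antisense genes were lower. In the list of LINC-named genes 5 of 48 (10.4%) were lower and 0 higher, and the median was -0.10, or -0.04 with no minimum of reads. Under 1000 reads 4 of 40 LINC-named genes (10%) were lower, beside 5.07% of all genes of such counts. LINC01001 had 241 and 160 reads, a ratio of 0.666 (0.542 to 0.817), LINC01355 had 196 and 133, a ratio of 0.681 (0.542 to 0.853), and LINC00621 had 139 and 93, a ratio of 0.672 (0.511 to 0.880). LINC00621 shares 652 bases with NUS1P2 on the opposite strand, which had 131 and 96 reads, so its own share is uncertain. Of 191 antisense-named genes 16 (8.38%) were lower and 0 higher. All 16 were among the 141 with under 1000 reads (11.3%), beside the same 5.07%. DLGAP1-AS1 had 342 and 234 reads, a ratio of 0.687 (0.579 to 0.813). Of 366 zinc finger genes, many of which encode DNA-binding repressors, 16 (4.37%) were lower and 0 higher, and the median was -0.04. All 16 were among the 250 with under 1000 reads (6.4%), beside 4.44% of coding genes of such counts. ZNF117 had 241 and 164 reads, a ratio of 0.683 (0.557 to 0.836).

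At low counts, protein-coding genes with many annotated retained-intron transcripts had a larger share called lower. This split too was made after the values were seen. Among coding genes with 200 to under 1000 reads and 0 such transcripts in GENCODE 29, 3.55% were lower and 1.29% higher. With 6 or more such transcripts 20 of 196 (10.2%) were lower and 0 higher, and the median log2 ratio was -0.10. From 1000 reads on, 9 of 2511 genes with 0 such transcripts (0.358%) and 3 of 750 with 6 or more (0.4%) were lower, and the medians were 0.0012 and -0.02. Over all reads of the rule, 1.62% and 2.43% were lower. In the UMUC3 pair the classes of 200 to under 1000 T24T reads had medians of 0.03 and 0.16. In these classes the median GC content was 48.4% with 0 such transcripts and 57.1% with 6 or more, and the median exonic length was 3851 and 6540.5 bases. The part of GC content and length in the result was not tested. Among the named lower genes TTLL3 has 7 such transcripts and NPIPB4 has 2. TTLL3 had 1116 reads in the pair, above the range in which the shares differed, and NPIPB4 had 616. Coding genes were also split into 5 classes of equal size by exonic length. The median log2 ratio was 0.0074 in the shortest class and -0.04 in the longest, and 1.26% and 2.23% were called lower. Among genes with 200 to under 1000 reads these shares were 2.63% and 7.41%.

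**Figure D4:**
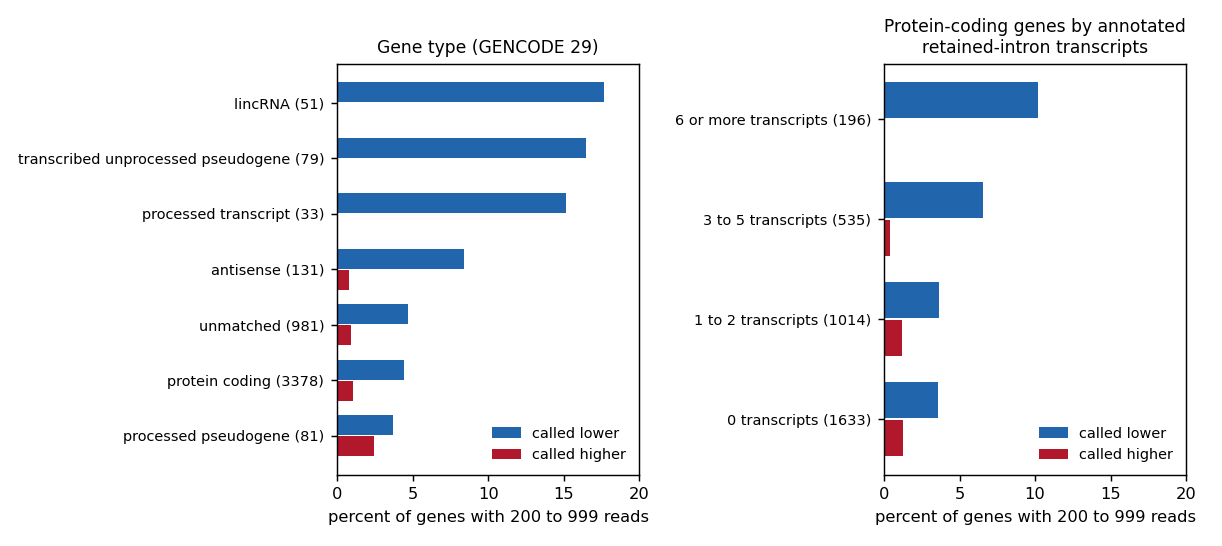
Percent of genes with 200 to under 1000 reads in the T24T pair that were called lower (blue) or higher (red), on the left by GENCODE 29 gene type and on the right for protein-coding genes by the number of annotated retained-intron transcripts, with gene numbers in brackets. Lower calls reach 17.6% in long intergenic noncoding RNAs and 10.2% in coding genes with 6 or more retained-intron transcripts, beside 4.44% over all protein-coding genes.

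The host gene and the reported target were looked at next. FNDC3B had 1786 and 1689 reads, a ratio of 0.949 (0.888 to 1.02), so its gene-level value was near equal. MMP9 had 2 and 27 reads, far below the 200 of the rule, or 0.0362 and 0.490 RPKM. Its ratio was 13.6, with a counting interval of 3.41 to 118. MMP9 overlaps RP11-465L10.10 on the opposite strand by 430 bases, which had 5 and 9 reads.

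The seed of miR-491-5p, bases 2 to 8, pairs with TCCCCAC. The mature microRNA, from RefSeq (GRCh38.p14) at chr9:20716120-20716141 on the plus strand, is shown with its seed in capitals, followed by the matches after the stop codon of MMP9 and of the named genes HBEGF, CLDN4 and TTLL3, with the match in capitals. The stretches are from GENCODE 29 transcripts (GRCh38): MMP9 at chr20:46016391-46016419 on the plus strand, HBEGF at chr5:140333568-140333596 on the minus strand, CLDN4 at chr7:73832182-73832210 on the plus strand and TTLL3 at chr3:9835339-9835367 on the plus strand. They are shown because HBEGF was higher and CLDN4 and TTLL3 were lower while each holds the same 7 bases. NRBP2, also named lower, holds a match too, which is not shown.
hsa-miR-491-5p: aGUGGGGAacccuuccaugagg
MMP9: tgccatgtaaaTCCCCACtgggaccaacc
HBEGF: tccactcctcaTCCCCACaatctggctta
CLDN4: catttacatttTCCCCACtctgtctgcct
TTLL3: cctgcttcgatTCCCCACtgcccttgtcc

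Over all genes with a stretch after the stop codon, the T24T median of those with a seed match was not above that of the others. The median log2 ratio was -0.01 in 8351 genes with no match, -0.02 in 1488 genes with 1 match and -0.03 in 419 genes with 2 or more, beside -0.02 over all 10258. Called higher were 0.371%, 0.403% and 0.239% of them, and called lower were 1.59%, 1.88% and 1.91%. Genes with matches have longer stretches after the stop codon, with medians of 1192 bases for no match and 3442 for 2 or more. Genes were therefore also split into 5 classes by this length. In the shortest class, up to 449 bases, the median was -0.02 in 107 genes with a match and -0.0086 in 1946 without. In the next, up to 1017 bases, it was -0.02 in 221 and -0.0081 in 1830. In the middle class, up to 1838 bases, it was -0.0125 in 373 and -0.0097 in 1679. From 1839 to 3260 bases the order was the other way, at -0.0121 in 492 with a match and -0.0143 in 1558 without. In the longest class, from 3262 bases on, 714 genes with a match and 1338 without had the same median of -0.03. The UMUC3 medians ran the other way, at 0.02 with no match, 0.06 with 1 and 0.10 with 2 or more. In UMUC3 the medians of coding genes also rose with GC content, from -0.13 in the lowest of 5 classes to 0.17 in the highest. The part of GC content in the UMUC3 medians was not tested, and the split by length was made in T24T only. Each of these medians is over genes of 2 libraries and carries no test.

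**Figure D5:**
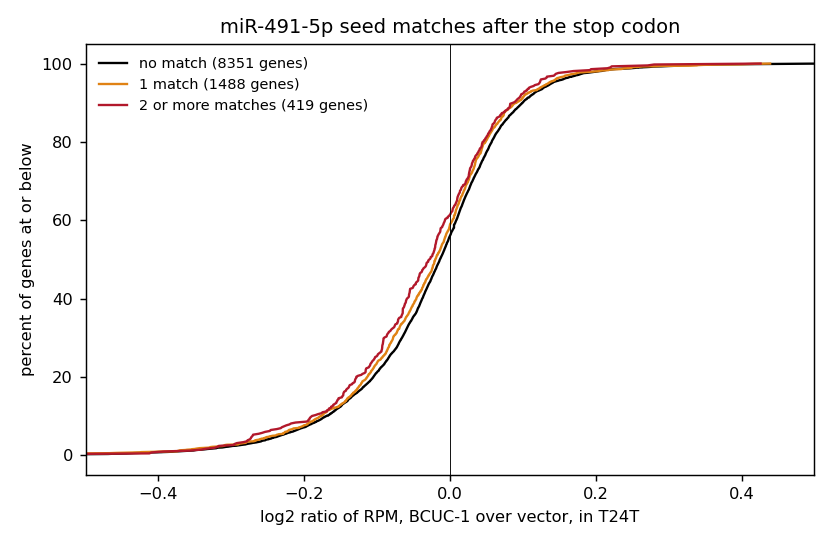
Cumulative percent of genes (y axis) at or below a log2 ratio of RPM (x axis), BCUC-1 over vector, in T24T, for genes with no match to the miR-491-5p seed after the stop codon (black, 8351 genes), with 1 (orange, 1488) and with 2 or more (red, 419). The curves lie close together, with medians of -0.01, -0.02 and -0.03.

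The UMUC3 pair has its own vector library, so it shares no control with T24T. With 1 library in each group the difference between the lines could not be tested, and values are given side by side. By the same rule, 578 of 12156 genes (4.75%) were higher and 352 (2.9%) lower in UMUC3. Of the 50 genes higher in T24T, 36 had enough reads in UMUC3, and 18 lay above 1 and 18 below. Over all 11273 genes with enough reads in both pairs, 57.0% lay above 1 in UMUC3, 4.33% were called higher there and 2.77% lower. In UMUC3 3 of them, IDI2, ANKRD1 and RP11-343H19.2, were called lower. The 2 called higher in both were AGFG2 (130 and 169 reads in T24T, 95 and 131 in UMUC3) and DNLZ (232 and 290, and 243 and 263), which are 4.0% of the T24T list and 0.346% of the UMUC3 list. Of the 276 lower genes, 184 had enough reads, and 108 lay above 1 (58.7%) and 76 below. In UMUC3 21 of them (11.4%) were called higher and 9 (4.89%) lower, and those 9 are 3.26% of the T24T list and 2.56% of the UMUC3 list. They were PIGM, ANKRD10-IT1, RP11-311C24.1, AC159540.1, BMPR2, RP11-379K17.12, PDE5A, BET1 and MT-TP.

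The leading T24T genes stood as follows in UMUC3. MT1E was nearly absent there, with 2 reads in vector and 1 in BCUC-1. MT1X had 915 and 647 reads, a ratio of 0.824 (0.744 to 0.913), and MT2A 22498 and 16720, a ratio of 0.866 (0.849 to 0.884). Both metallothioneins thus lay below 1 in UMUC3 and above 1 in T24T. ADM had 1428 and 1004 reads, a ratio of 0.820 (0.755 to 0.889), CXCL1 639 and 447, a ratio of 0.815 (0.721 to 0.922), and CYR61 8849 and 6672, a ratio of 0.879 (0.851 to 0.907). These genes too lay on the other side of 1. NEAT1 had 55189 and 45110 reads, a ratio of 0.953 (0.941 to 0.965), while its row NEAT1_1 had 7948 and 7514, a ratio of 1.10 (1.07 to 1.14). NFAT5 had 4439 and 3177 reads, a ratio of 0.834 (0.797 to 0.873), and BMPR2 had 793 and 530, a ratio of 0.779 (0.697 to 0.871), and both lay below 1 in each line. CLDN4 had 14 and 15 reads, and H19 had 0 and 1, too few for a ratio. MAP3K14 lay above 1 in both lines, with 1422 and 1394 UMUC3 reads, a ratio of 1.14 (1.06 to 1.23). MMP9 had 37 and 137 reads in UMUC3, a ratio of 4.32 (2.98 to 6.39).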

How the data were processed

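RNA sequencing gave 1 library for each of 4 groups, which were assigned by their titles. The authors deposited RPKM for each gene and library, scaled per kilobase and per 1000000 assigned reads. Per the file headers the deposited table also gives a Length in bases (unit "other"). The submitters' processing notes name Bowtie 0.12.2. The role of that tool is not given in the sources used here, nor are a build or annotation. In each library 100% of the products of RPKM and length were multiples of the same step, within 0.001 reads, and reads were recovered from them. The depths in assigned reads were 23679229 and 23588847 for T24T vector and BCUC-1, and 26497894 and 22730112 for UMUC3.

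Ratios of RPM with exact (Clopper-Pearson) 95% intervals were computed in Python 3.11.15 with scipy 1.17.1. They cover counting error only, as PCR copies were not marked by molecular identifiers. A 0 allows up to 3 reads. No test across genes was made. The script was tested on simulated counts. Of the 12515 genes, 11009 (88.0%) matched a GENCODE 29 symbol, and 98.1% of these had its start or its end, so GRCh38 coordinates are given. Spreadsheet conversion had altered 27 gene names in the table, and 18 of the 12515 had an altered or repeated name. They stayed in the counts and were not named. Overlaps with other genes are given for the leading genes. The sources used here do not state whether the counting used strand. That it did not is inferred from reads on rows opposite to abundant genes. AP000769.1, wholly within the MALAT1 exons on the opposite strand, had 3207 and 2559 reads in T24T vector and BCUC-1.

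Named were the 15 genes each way whose interval bound nearest to 1 was farthest from it, FNDC3B, MMP9, and up to 4 members each way of 32 gene lists and 4 marker lists by the same rank. Genes called in a list beyond these, and genes called in both pairs, were named after their values were seen. Some genes are not reported here. Members and lists were chosen with earlier results of these data known. Alternatives were equal medians, trimmed-mean scaling (own implementation), log2(RPKM + 1), log2(RPKM + 0.1), removal of the GC trend in 20 bins, other minimum reads, other folds and the omission of genes under 200 bases.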

Additional observations from a re-analysis of the deposited data

Results flagged for a closer look

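Among the genes named, 3 were called lower with BCUC-1 in T24T and higher in UMUC3, and 3 the other way. The difference between the lines was not tested, since each group held 1 library. NRBP2 had a log2 ratio of -0.55 in T24T and 0.40 in UMUC3. NEAT1_2, a short row within NEAT1, had -0.63 and 0.42. BCL3, the nuclear partner of NF-kB p50 and p52, had -0.46 and 0.56. ANKRD1, of the YAP and TEAD targets, had 0.35 and -0.54. IDI2, a paralog of the isopentenyl diphosphate isomerase gene IDI1, had 0.42 and -0.47. RP11-343H19.2, which shares bases with MT1X, had 0.39 and -0.36.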

How the results depend on the processing

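With equal medians, log2(RPKM + 0.1), the GC trend removed, the fold alone and genes under 200 bases left out, the counts of 50 higher and 276 lower genes stayed within 1.5 times, and so did the lower count under trimmed-mean scaling. Trimmed-mean scaling gave 82 higher genes. On log2(RPKM + 1), which shrinks low genes, 19 were higher and 80 lower. A minimum of 50 reads gave 94 higher and 465 lower, a minimum of 1000 gave 3 and 31, and no minimum gave 146 and 617, as these test more or fewer genes. At 1.5-fold 1 was higher and 14 lower. The log2 ratios of 107 genes given in the text were recomputed under both scalings, both pseudocounts and the GC trend. Of these 535 values 11 left the gene's own counting interval. They include FAR2P1, TMEM260 and MMP9 on log2(RPKM + 1), at -0.31, -0.32 and 0.52. MKI67, not called, was the 1 gene whose sign turned, to 0.0042 under equal medians and 0.02 under trimmed means. Equal medians shift log2 ratios by 0.017 and trimmed means by 0.031, so list medians near 0 change sign. Set against the median of all genes under the same setting, 4 of 32 list medians changed side under at least 1 setting: nuclear-retained RNAs, histones, cholesterol genes and circular RNA factors. No paired analysis was possible because each group held 1 library in T24T. A fit over both lines with the line as a block was not run, as it would test the mean of the lines and not the T24T pair. At 200 reads in the pair the depth gives an interval of about 0.39 on the log2 scale on each side, so smaller differences of such genes were not detectable.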
